A study of Mus musculus with 58 samples.

Results

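Annexins are a family of calcium-dependent membrane proteins, and their mRNA was followed in forebrain microglia of C57BL/6 mice, isolated by cell sorting. 8 genes were chosen by symbol, Anxa1, Anxa2, Anxa3, Anxa4, Anxa5, Anxa6, Anxa7 and Anxa11. The choice rested on measured values of these same data, namely that Anxa2 was higher in mice lacking Sgsh and Anxa5 was higher after knockdown of Mitf. In those contrasts all 8 genes are therefore described without a p-value, and nothing is read from how many of them passed the test. Anxa5 is given without a p-value in every comparison with the control libraries of that knockdown too. The deposited count table of the age series lists all 8 among 24940 genes. The table of the antisense libraries from wild-type (WT) mice lists 6 of them among 10277 genes (all but Anxa1 and Anxa2), and that from SgshKO mice lists 7 among 10589 (all but Anxa1). Those 2 tables hold no genes of very low count, and every listed member passed the filter on low counts.

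Annexins bind acidic phospholipids such as phosphatidylserine when calcium is present, through a core of repeated domains that the family shares, and they differ in their N-terminal tails. Outside the cell, annexin A1 is a ligand of the formyl peptide receptor encoded by Fpr2, and annexin A2 with its S100A10 partner is a surface receptor for plasminogen. Annexin A5 is known for covering exposed phosphatidylserine, the mark by which phagocytes such as microglia recognise dying cells, and several members gather at torn plasma membrane and on endosomes and lysosomes. Anxa3 is a gene of resting mouse microglia, the macrophages that live in the brain.

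The age series compared untreated WT with SgshKO mice. Sgsh encodes a lysosomal enzyme that degrades heparan sulfate, and its loss models the storage disease mucopolysaccharidosis type IIIA. There were 3 WT and 4 SgshKO libraries at 3 weeks, 2 and 2 at 4 months, and 4 and 7 at 8 months. The antisense oligonucleotides (ASOs, which lower a target mRNA) were given as 1 dose into the cerebral ventricles, with microglia harvested after 14 days. WT mice received PBS alone, an ASO named ntc that serves as control, or 1 of 3 ASOs that lower Mitf, Tfeb or Tfe3, related transcription factors known for control of lysosomal genes, with 4 libraries each. SgshKO mice, which thus carry the knockout in both arms, received ntc or the Mitf and Tfe3 ASOs together, with 8 libraries each in 2 sets called grp 1 and grp 2. An ASO injected into the ventricles reaches brain cells other than microglia too, and how old the injected mice were is not in the labels. The labels do not say whether libraries of a group came from separate animals, so p-values measure the spread between these libraries, which may be partly technical.

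Depth ran from 8191508 to 27106584 counts per library with age, from 14372015 to 30378870 for WT after ASO and from 12517838 to 30431437 for SgshKO after ASO. CPM, the scale of all levels unless TPM is named, were computed from the counts with TMM-adjusted library sizes. The sort gate was CD11b+, CD45low and CX3CR1+, and the 8 microglial markers summed to 39190 to 53090 CPM in WT libraries of the age series. In its SgshKO libraries they summed to 46180 to 49700 CPM at 3 weeks, below the 51660 to 53090 CPM of WT at that age, and to 28400 to 34300 CPM at 4 and 8 months. Sgsh mRNA was still detected in SgshKO (14.9 to 34.7 CPM, against 20.3 to 59.2 CPM in WT), so it checks these labels little. The ASO targets were lower in their own groups: Mitf was 1.58 against 43.7 CPM with ntc, Tfeb 5.80 against 54.9 CPM and Tfe3 38.1 against 198 CPM. With the combination in SgshKO, Mitf was 15.3 against 72.4 CPM and Tfe3 80.4 against 170 CPM.

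Promoter sequence was read for the members from RefSeq windows of 300 bases in build GRCm38.p6, because the knocked-down factors bind short DNA motifs. 6 of the 8 genes had a window. The motifs searched on both strands were CACGTG (the E-box core), TCACGTGA (the core of the lysosomal CLEAR element, which overlaps the E-box core), TCATGTG (an M-box core) and TGACTCA (AP-1). Of all 32851 windows, 7.15%, 0.974%, 3.77% and 5.2% held these motifs, in that order. The Anxa5 and Anxa2 sequences are shown because the results turn on these genes. For Anxa2, on the plus strand of chromosome 9, the bases at chr9:69453433-69453619 lie upstream of all annotated untranslated sequence, and the capitals mark an AP-1 match on the reverse strand that begins 95 bases before the RefSeq start. For Anxa5, on the minus strand of chromosome 3, most of the window is exonic sequence of the head-to-head neighbour 1810062G17Rik, and chr3:36475895-36475936 is the stretch between their annotated starts.
Anxa2: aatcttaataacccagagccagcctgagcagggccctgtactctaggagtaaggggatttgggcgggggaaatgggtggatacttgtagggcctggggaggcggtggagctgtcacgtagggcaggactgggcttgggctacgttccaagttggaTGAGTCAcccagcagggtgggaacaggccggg
Anxa5: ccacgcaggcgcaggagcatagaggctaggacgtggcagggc
None of the 4 motifs was found in the windows of Anxa1, Anxa4, Anxa5 or Anxa11. Anxa7 had an M-box match 78 bases before 1 annotated start and an E-box match 113 bases before another. A match is only a run of letters, and its absence concerns only these letters in this window.

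The genes themselves lie on 7 chromosomes. In the coordinates of the age-series table, Anxa1 spans chr19:20373434-20390671 (minus strand), Anxa2 chr9:69453683-69491785 (plus), Anxa3 chr5:96793385-96845968 (plus) and Anxa4 chr6:86736840-86775114 (minus). Anxa5 spans chr3:36448924-36475887 (minus), Anxa6 chr11:54978953-55033471 (minus), Anxa7 chr14:20455261-20480133 (minus) and Anxa11 chr14:25842155-25886804 (plus).

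Anxa3 had the highest mean level of the annexin mRNAs in every group of the age series, and the order of the others changed with genotype. Levels of different genes are compared here in TPM, which corrects for transcript length. In WT mice at 8 months Anxa3 stood at 287 ± 21.7 TPM (SD, n = 4), followed by Anxa7 at 30.7 ± 3.76 and Anxa6 at 24.5 ± 1.32 TPM. Anxa4 (12.1 ± 1.88) and Anxa5 (10.3 ± 1.74) came next and lay within each other's spread, with Anxa11 at 6.87 TPM below them. Anxa2 at 0.953 and Anxa1 at 0.0462 TPM were barely detected.

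The order in SgshKO mice at 8 months was different below Anxa3, which stood at 298 ± 20.7 TPM (n = 7). Anxa5 was second at 101 ± 6.50 TPM. Anxa7 (48.1 ± 2.36), Anxa2 (45.8 ± 8.32), Anxa1 (44.4 ± 45.9), Anxa6 (39.6) and Anxa4 (36.1 TPM) followed with overlapping libraries, and Anxa11 was lowest at 12.7 TPM. At 3 weeks in SgshKO, Anxa5 (32.6), Anxa6 (31.5) and Anxa7 (30.7 TPM) could not be ordered beyond their spread, whereas in WT of that age Anxa5 (5.72 TPM) lay below Anxa7 (24.1), Anxa6 (23.6) and Anxa4 (13.1 TPM). At 4 months in SgshKO the order at the top was not settled, since Anxa3 had 279 and 259 TPM and Anxa1 64.9 and 331 TPM in the 2 libraries. The 4 annexin genes outside the chosen set contributed little. Anxa9 had group means between 2.6 and 6.1 TPM. Anxa8, Anxa10 and Anxa13 had group means of at most 0.304 TPM and at most 0.915 TPM in any library.

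The first comparison asks how annexin mRNA differs between SgshKO and WT microglia at each age. All but Anxa3 were higher in SgshKO at 4 and 8 months, and all but Anxa3 and Anxa1 at 3 weeks. Anxa5 had the largest difference at 3 weeks, whereas Anxa2 and Anxa1 had the largest ones later. No member was lower at an adjusted p of 0.05 by edgeR's quasi-likelihood test. These contrasts chose the members, so the values below are a description. In bulk libraries a larger share of cells with a transcript and more of it per cell cannot be told apart.

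Anxa5, whose protein binds phosphatidylserine, was 5.47, 6.86 and 6.70 CPM in the WT libraries at 3 weeks and 38.0, 35.2, 38.9 and 39.0 CPM in SgshKO. At 4 months it was 18.0 and 23.5 CPM in WT and 121 and 117 CPM in SgshKO. At 8 months the WT libraries had 9.99, 13.3, 12.7 and 9.20 CPM, and the 7 SgshKO libraries ran from 111 to 139 CPM with a median of 119. Every SgshKO library lay above every WT library of its age, and the SgshKO libraries of a group lay close together. The log2 fold change was 2.57 ± 0.134 (SE) at 3 weeks, 2.51 ± 0.161 at 4 months and 3.41 ± 0.112 at 8 months, a 5.92-fold, 5.71-fold and 10.6-fold difference.

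Anxa2, the plasminogen-binding member, started from a far lower level. WT libraries had 0.982, 1.26 and 1.17 CPM at 3 weeks, 5.32 and 5.45 CPM at 4 months and 0.416, 1.31, 0.519 and 1.06 CPM at 8 months. SgshKO libraries had 2.47, 3.57, 2.52 and 3.51 CPM at 3 weeks, 51.1 and 67.7 CPM at 4 months, and between 35.5 and 54.6 CPM at 8 months (median 41.8). The groups did not overlap at any age, and the SgshKO level at 3 weeks was below the WT level at 4 months. The log2 fold changes were 1.40 ± 0.28, 3.46 ± 0.293 and 5.72 ± 0.239 in order of age.

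Anxa4 and Anxa6 are membrane-binding members without a well-known extracellular ligand role. Anxa4 was 18.9, 15.3 and 17.4 CPM in WT and 34.3, 32.4, 29.9 and 33.3 CPM in SgshKO at 3 weeks, and 18.9, 14.4, 14.8 and 13.2 CPM against 40.7 to 60.4 CPM (median 51.1) at 8 months. Its log2 fold change was 0.92 ± 0.136 at 3 weeks and 1.73 ± 0.116 at 8 months, and the difference at 4 months was 2.57-fold. Anxa6 was 39.4 to 40.5 CPM in WT and 45.9 to 60.6 CPM in SgshKO at 3 weeks, and 39.3 to 45.0 against 57.8 to 85.8 CPM at 8 months. Its differences were smaller, with log2 fold changes of 0.48 ± 0.115, 0.69 ± 0.151 and 0.83 ± 0.0958. For both genes the groups were separate at every age.

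Anxa7, whose product binds sorcin (Sri), and Anxa11, whose product binds S100A6, were also higher in all SgshKO libraries of an age than in its WT libraries. Anxa7 was 43.7 to 45.7 CPM in WT and 50.8 to 64.0 CPM in SgshKO at 3 weeks, and 49.4 to 64.0 against 92.3 to 103 CPM at 8 months. The log2 fold changes of Anxa7 were 0.42 ± 0.0947, 0.62 ± 0.124 and 0.79 ± 0.0784. Those of Anxa11 were 0.58 ± 0.181, 1.49 ± 0.239 and 1.03 ± 0.151, on WT levels of 8.35 to 12.7 CPM at all ages.

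Anxa3 differed little. It was 310, 266 and 256 CPM in WT and 238, 263, 301 and 249 CPM in SgshKO at 3 weeks, and the 8-month groups overlapped at 251 to 305 CPM in WT and 294 to 372 CPM in SgshKO. The log2 fold changes were -0.08 ± 0.0983, 0.05 ± 0.129 and 0.20 ± 0.0812. Anxa3 thus had the smallest genotype difference on the log2 scale of the members at each age.

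**Figure D1:**
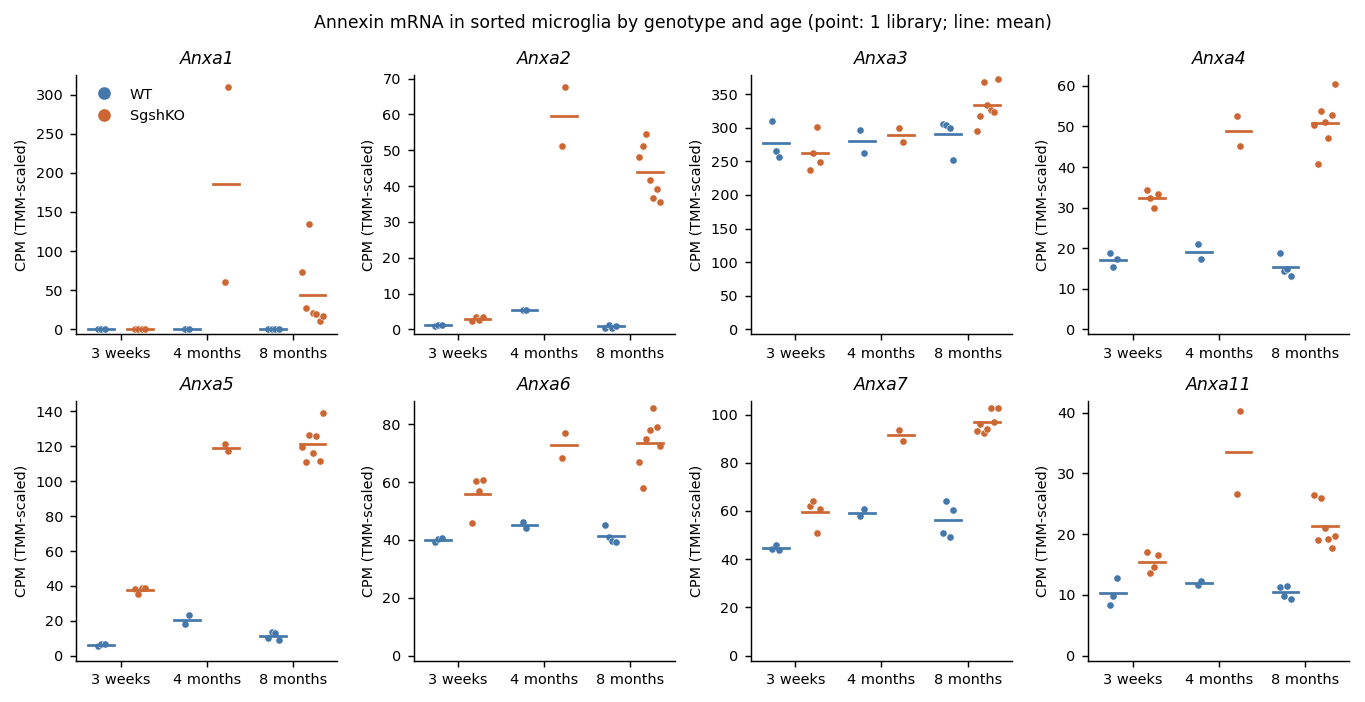
Levels of the 8 annexin mRNAs in CPM scaled with TMM factors (vertical axes, linear from 0) by age, in WT (blue) and SgshKO (orange). Each point is 1 library and each line a group mean. WT and SgshKO points are separate at every age for Anxa2, Anxa4, Anxa5, Anxa6, Anxa7 and Anxa11, and Anxa3 overlaps at each age. The share of all genes with separate groups was not computed.

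As counts, 6 of 8 members were called higher at 3 weeks, where 5.31% of the 14309 genes tested were called higher and 3.72% lower. At 4 months 7 of 8 were called higher against 10.3% of genes, and at 8 months 7 of 8 against 21.6% higher and 18.9% lower. The median log2 fold change over the members was 0.531, 1.42 and 1.38, beside all-gene medians of -0.0175, 0.0211 and 0.0238. These counts describe how the members were chosen. The 3-week count was 5 under 10 of the 14 alternatives run, in each of which Anxa11 was lost: no filter on low counts, DESeq2's size factors, the replicate block, TPM with either pseudocount, and without SgshKO replicate 1, 3 or 4 or WT replicate 1 or 2.

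Anxa1 stood apart in that it passed 1.02 CPM only in the older SgshKO groups. It was at most 1.02 CPM in all libraries at 3 weeks and at most 0.591 CPM in WT at any age. SgshKO libraries had 60.9 and 310 CPM at 4 months and 73.1, 27.0, 135, 21.3, 19.4, 11.1 and 16.7 CPM at 8 months. Both ages thus showed a wide spread among SgshKO libraries, unlike Anxa5. From pooled counts, SgshKO held 22 Anxa1 counts against 13 in WT at 3 weeks, a ratio per total count of 1.22 with an exact 95% counting interval of 0.588 to 2.636. At 4 months 4104 counts stood against 8, a ratio of 588.1 (298.2 to 1363), and at 8 months 7022 against 3, a ratio of 1176 (402.3 to 5705). These intervals cover counting error only and not the spread between libraries.

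Anxa1 is abundant in neutrophils, and markers of neutrophils moved with Anxa1 in these libraries. The 10 neutrophil markers summed to 1.15 to 7.68 CPM in WT libraries, where Ly6g, Retnlg and Mmp8 were those mostly at 0. In SgshKO they summed to 12.7, 2.09, 1.74 and 31.3 CPM at 3 weeks, to 3025 and 14866 CPM at 4 months, and to 2863, 836, 5874, 653, 758, 437 and 761 CPM at 8 months, in the library order used for Anxa1 above. No marker of the list was at 0 in a SgshKO library of 4 or 8 months, and all 10 were called higher at both ages. The library with the most neutrophil marker counts had the most Anxa1 at 4 months and at 8 months, and the library with the fewest at 8 months had the least Anxa1. The 6 monocyte markers moved likewise, from 6.37 to 14.0 CPM in WT to 329 to 1418 CPM at 4 months and 50.9 to 470 CPM at 8 months in SgshKO. The part of these cell types in the Anxa1 result was not tested.

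Markers of other cells moved with the genotype of all members too. The 6 border macrophage markers summed to 54.4 to 121 CPM in SgshKO and 9.10 to 32.1 CPM in WT over 4 and 8 months, with 2 and 4 of them called higher at those ages, Ms4a7 and Mrc1 at both and Cd163 and Pf4 at 8 months. Lyve1 was at 0 in 1 SgshKO library of each of these ages, and at least 1 of Lyve1, Pf4, Cd163 and Ms4a7 was at 0 in 5 of the 6 WT libraries. At 3 weeks these markers summed to 82.5 to 109 CPM in SgshKO and 54.7 to 75.8 CPM in WT, with none called. The 6 astrocyte markers summed to 11.7 to 27.1 CPM in SgshKO and 2.86 to 6.86 CPM in WT over 4 and 8 months, with 2 and 3 called higher, and Gjb6 was at 0 in most of those libraries. The 6 endothelial markers summed to 23.6 to 30.0 CPM in SgshKO and 12.1 to 18.2 CPM in WT at 3 weeks, where Kdr was called higher and Cldn5 and Ly6c1 were at 0 in every library. At 4 months 0 of the endothelial markers were called. At 8 months 3 were tested (Flt1, Cdh5 and Kdr), of which 2 were called higher and 1 lower. The endothelial sums at 8 months overlapped, at 27.2 to 46.8 CPM in SgshKO and 14.0 to 30.7 CPM in WT. At 8 months Mobp, Mbp and Cnp of the oligodendrocyte list were called higher, and its sums overlapped (146 to 161 against 118 to 147 CPM). Of the 5 oligodendrocyte markers tested, only those 3 had a positive log2 difference, and 0 were called lower. The part of these cells in the annexin differences was not tested.

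Anxa11 and, less closely, Anxa2 were also highest in the libraries with the most neutrophil marker counts. Anxa11 was 26.5 and 40.3 CPM at 4 months and 26.5, 19.1, 26.0, 21.0, 19.1, 17.6 and 19.6 CPM at 8 months. Without the 2 SgshKO libraries of 8 months that hold the most neutrophil counts (replicates 1 and 3), its log2 fold change at that age was 0.87 in place of 1.03. For Anxa2 it was 5.61 in place of 5.72, and for Anxa5 3.40 in place of 3.41. Anxa5 was 119 and 126 CPM in those 2 libraries, within the 111 to 139 CPM of the other 5. Those 5 still held at least 437 CPM of neutrophil markers, against at most 3.95 CPM in WT libraries of 8 months. The part of neutrophils in the differences that remain was not tested.

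**Figure D2:**
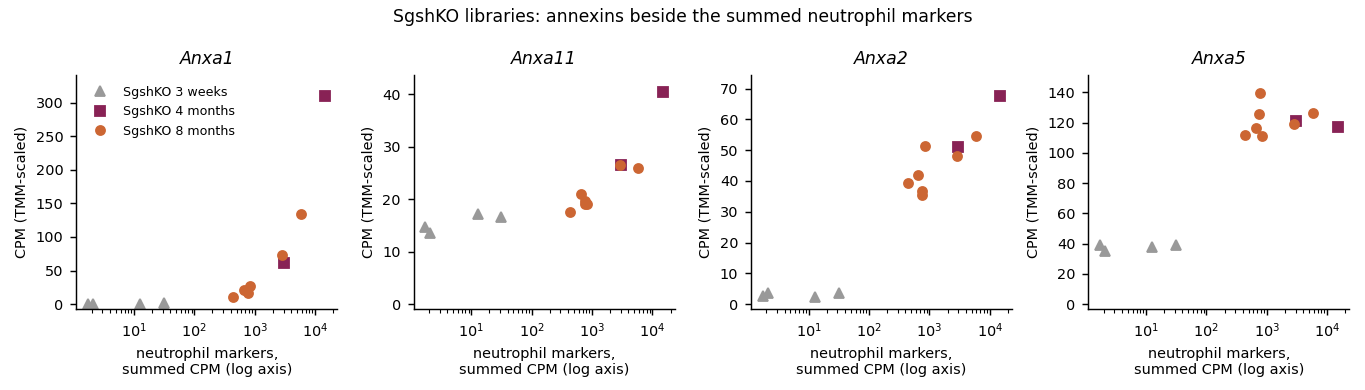
Levels of Anxa1, Anxa11, Anxa2 and Anxa5 (vertical axes, CPM scaled with TMM factors, linear from 0) against the summed CPM of 10 neutrophil markers (horizontal axes, log scale) in the SgshKO libraries, with 1 point per library and symbols for age. Anxa1 and Anxa11 are highest in the 4-month library with 14866 CPM of markers, whereas the 4- and 8-month libraries span 111 to 139 CPM of Anxa5 across that range.

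The second comparison asks how annexin levels change with age within each genotype. It draws on the same libraries as the genotype contrasts that chose the members. Its p-values and counts of calls, in WT and in SgshKO, may therefore not be free of that choice. In WT mice most members changed little. Anxa5 rose from 6.35 ± 0.760 CPM (SD, n = 3) at 3 weeks to 20.7 ± 3.88 CPM (n = 2) at 4 months and then fell to 11.3 ± 2.01 CPM (n = 4) at 8 months. The log2 change was 1.71 ± 0.154 (SE) for the first step, with an edgeR adjusted p of 2.34e-07. It was -0.87 ± 0.14 for the second (adjusted p = 0.000607 by edgeR) and 0.84 ± 0.135 from 3 weeks to 8 months (adjusted p = 0.000196). The fall rests on 2 libraries at 4 months: without WT replicate 2 of that age it was -0.65, with an edgeR adjusted p of 0.0777.

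Anxa7 rose in WT by 0.41 on the log2 scale from 3 weeks to 4 months (edgeR adjusted p = 0.0301) and by 0.34 from 3 weeks to 8 months (adjusted p = 0.0287). Neither call held when single libraries were left out: the first was lost without any 1 of its 5 libraries (0.0617 to 0.292), and the second without any WT library of 3 weeks or without replicates 2 or 4 of 8 months (0.0589 to 0.0975). The second was also lost when only the groups compared were fitted (0.0818). Leaving Anxa2 aside, 2 of 7 members were thus called higher at 4 months than at 3 weeks, beside 2.61% of all genes, 1 was called lower at 8 than at 4 months (3.59% of genes), and 2 were called higher at 8 months than at 3 weeks (3.02%). Anxa2 was described above and was likewise highest at 4 months, at 5.32 and 5.45 CPM.

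The 4-month libraries also held more fibroblast marker counts than those of the other ages. The 6 markers summed to 5.74 and 7.33 CPM in WT and to 12.8 and 13.2 CPM in SgshKO at 4 months, and to at most 1.62 CPM in every library of 3 weeks or 8 months. Dcn, Lum or Slc6a13 was at 0 in each 4-month library. Whether these counts have a part in the WT peak of Anxa5 and Anxa2 was not tested.

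In SgshKO mice the annexins were higher at 4 months than at 3 weeks, and most then stayed near that level. Anxa5 rose from 37.8 ± 1.77 (n = 4) to 119 ± 2.95 CPM (n = 2), a log2 change of 1.66 with an edgeR adjusted p of 1.17e-09. It was then 122 ± 9.99 CPM (n = 7) at 8 months, a log2 difference of 0.03 from 4 months (95% interval -0.216 to 0.272, edgeR adjusted p = 0.896). Anxa1 rose by 9.08 on the log2 scale (edgeR adjusted p = 2.65e-07), Anxa11 by 1.12 (0.000115), Anxa7 by 0.62 (8.55e-05), Anxa4 by 0.59 (0.00331) and Anxa6 by 0.38 (0.0247) from 3 weeks to 4 months. Anxa3 differed by 0.14 (adjusted p = 0.364). That made 6 of the 7 members other than Anxa2, beside 17.6% of all genes. The Anxa4 call was lost without SgshKO replicate 1 of 4 months (adjusted p = 0.0834), and the Anxa6 call without either 4-month library (0.0542 and 0.354), without SgshKO replicate 1 of 3 weeks (0.0718) or with only the groups compared in the fit (0.0555).

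From 4 to 8 months Anxa1 fell by 2.08 (edgeR adjusted p = 0.0138) and Anxa11 fell by 0.65 (0.0119) on the log2 scale, 2 of 7 members beside 11.0% of genes called lower. Both falls rest on the 4-month library with the most neutrophil counts: without it (replicate 2) they were -0.43 for Anxa1 and -0.28 for Anxa11, with edgeR adjusted p of 0.783 and 0.508. For Anxa1 the fall did not pass by DESeq2 (adjusted p = 0.163), when only the groups compared were fitted (0.0646) or with log2(TPM + 0.1) (0.0863). From 3 weeks to 8 months all 7 were called higher, beside 15.5% of genes, in libraries that also entered the choice of the members. Anxa5 rose by 1.69 (edgeR adjusted p = 7.05e-12), Anxa7 by 0.70 (2.22e-07), Anxa4 by 0.65 (6.76e-05), Anxa6 by 0.40 (0.00228) and Anxa3 by 0.35 (0.0022). Anxa11 rose by 0.46 (adjusted p = 0.018) and did not pass without the 2 SgshKO libraries of 8 months that hold the most neutrophil counts (0.31, adjusted p = 0.127), nor without SgshKO replicate 2 or 3 of 3 weeks (0.0728 and 0.0526).

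Whether the genotype difference itself changed with age was tested as an interaction. It draws on the same libraries as the genotype contrasts that chose the members, so its p-values may not be free of that choice. Anxa5 had a larger difference at 8 months than at 3 weeks by 0.84 ± 0.164 (SE) on the log2 scale, with an edgeR adjusted p of 0.00139. Anxa4 had a larger one by 0.81 ± 0.173 (edgeR adjusted p = 0.00307). These were 2 of the 7 members other than Anxa2, beside 5.98% of genes called higher, and both held under every alternative run, with a largest adjusted p of 0.0098 for Anxa5 and 0.0165 for Anxa4. Anxa7 (0.37, adjusted p = 0.0579), Anxa6 (0.35, 0.146), Anxa3 (0.28, 0.188), Anxa11 (0.44, 0.27) and Anxa1 (9.40, 0.0726) did not pass. Of the 26 alternatives run, 8 called Anxa1 and 2 called Anxa7, so these 2 results depend on the processing.

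Between 4 and 8 months the Anxa5 difference grew by 0.90 ± 0.185 (edgeR adjusted p = 0.0297), beside 0.259% of genes. It did not pass without either WT library of 4 months (adjusted p = 0.0502 and 0.439), without SgshKO replicate 2 of 4 months (0.105), with only the groups compared in the fit (0.0921) or without the 2 SgshKO libraries of 8 months with the most neutrophil counts (0.0583). The replicate number as a block ended this call too. Between 3 weeks and 4 months, where 1.63% of genes were called higher, no member other than Anxa2 passed by edgeR's test, and Anxa5 differed by -0.05 (adjusted p = 0.938). At an unadjusted p under 0.05 this interaction was passed by Anxa1 and Anxa11. After adjustment, 4 of its 18 alternatives called Anxa1 and 1 called Anxa11.

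The third comparison asks what each ASO does to annexin mRNA in WT mice. All 3 contrasts share the 4 ntc libraries, so their values stand side by side and agreement between them is no independent evidence. Anxa5 was highest with the Mitf ASO, intermediate with the Tfeb ASO and close to ntc with the Tfe3 ASO. Anxa6 was higher with all 3.

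Anxa5 was 24.2, 21.95, 28.9 and 20.5 CPM with ntc and 58.9, 48.1, 52.1 and 45.7 CPM with the Mitf ASO, in the order grp 1 to 4. The groups did not overlap, and each Mitf ASO library was above all other libraries of the set. The log2 fold change was 1.11 ± 0.0832 (SE), a 2.16-fold difference, given as a description since it chose the gene. With the Tfeb ASO Anxa5 was 34.0, 28.5, 30.4 and 30.6 CPM, a log2 difference of 0.38 ± 0.0843. In each grp the Tfeb library was above the ntc library, yet the groups overlapped. With the Tfe3 ASO it was 26.7, 22.6, 30.1 and 26.8 CPM, a log2 difference of 0.16 (95% interval -0.0196 to 0.335). Both differences draw on the ntc libraries that chose Anxa5, so they too are a description.

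The PBS libraries had 17.8, 17.6, 20.7 and 19.0 CPM of Anxa5, so that ntc itself lay 0.34 ± 0.0856 above PBS on the log2 scale. By edgeR no gene of 10277 was called between ntc and PBS (0.00%). Leaving Anxa5 aside as before, no member had an unadjusted p under 0.05.

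Microglial markers were lower with the Mitf ASO. The 8 markers summed to 57910 to 60160 CPM, below the 61370 to 64780 CPM with ntc and overlapping the 59730 to 64780 CPM with PBS, and Cx3cr1 (-0.30), Sall1 (-0.21) and Tmem119 (-0.18 on the log2 scale) were called lower. Of the 6 oligodendrocyte markers 4 are listed, and Mobp was called higher, at 2.78 to 4.13 against 0.665 to 1.77 CPM. No neutrophil or fibroblast marker is listed in this table, and Mrc1, the 1 border macrophage marker listed, had 39.1 to 56.2 CPM with the Mitf ASO and 28.9 to 49.3 CPM with ntc. The part of these changes in the annexin differences was not tested.

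Anxa6 was 43.0, 41.8, 42.5 and 35.4 CPM with ntc. It was 52.2, 48.2, 56.5 and 46.1 CPM with the Mitf ASO, 52.4, 48.4, 56.8 and 53.8 CPM with the Tfeb ASO and 51.5, 45.4, 54.2 and 48.0 CPM with the Tfe3 ASO. No library of these 3 groups overlapped the ntc libraries, which in turn overlapped PBS (34.3 to 43.0 CPM). The log2 fold change was 0.32 ± 0.061 with the Mitf ASO. Anxa6 rose by 0.38 ± 0.0612 with the Tfeb ASO (edgeR adjusted p = 0.00373) and by 0.29 ± 0.0611 with the Tfe3 ASO (edgeR adjusted p = 0.0185). The Tfe3 call of Anxa6 was lost without the ntc or the Tfe3 ASO library of grp 3 or of grp 4 (adjusted p = 0.0526 to 0.0792) and when only the groups compared were fitted (0.0723).

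Anxa11 and Anxa4 were also separate from ntc with the Mitf ASO. Anxa11 was 29.6, 22.4, 28.2 and 24.0 CPM with ntc and 37.7, 31.2, 31.5 and 33.6 CPM with the Mitf ASO, a log2 fold change of 0.37 ± 0.0726. Anxa4 was 27.3, 26.4, 27.3 and 22.9 CPM with ntc and 33.1, 31.6, 31.4 and 34.6 CPM with the Mitf ASO, a log2 fold change of 0.33 ± 0.0841. Their differences did not pass by edgeR with the Tfeb ASO (0.24 for Anxa11, adjusted p = 0.159, and 0.10 for Anxa4, 0.624) or the Tfe3 ASO (0.13, 0.388, and 0.18, 0.306).

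Anxa3 and Anxa7 overlapped ntc in every group. Anxa3 was 230, 257, 255 and 251 CPM with ntc and 256, 280, 292 and 264 CPM with the Mitf ASO, and Anxa7 was 81.8, 76.7, 66.5 and 77.3 CPM against 97.4, 82.1, 76.2 and 71.7 CPM. Their log2 differences with the Mitf ASO were 0.14 ± 0.0454 and 0.11 ± 0.0511. With the Tfeb and Tfe3 ASOs they lay between -0.08 and 0.14 and did not pass by edgeR.

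**Figure D3:**
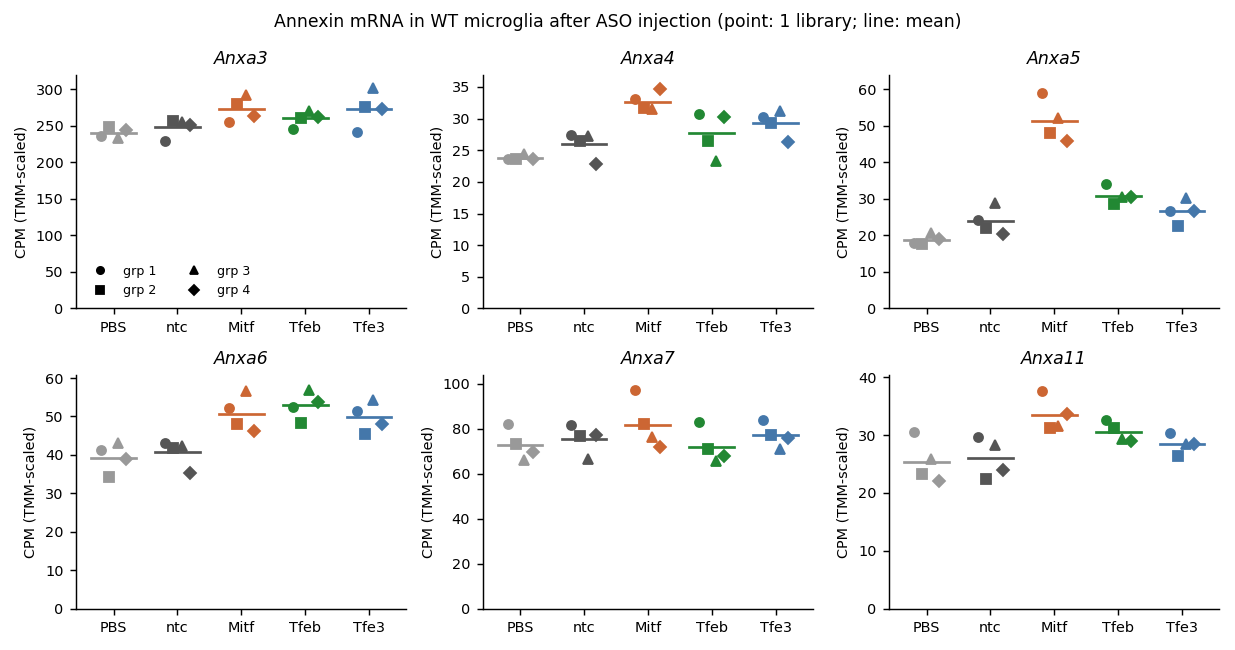
Levels of the 6 annexin mRNAs listed for WT mice in the 5 treatment groups (vertical axes, CPM scaled with TMM factors, linear from 0), with 1 point per library, a symbol per grp and a line at the mean. The Mitf ASO libraries have 45.7 to 58.9 CPM of Anxa5 and every other library at most 34.0 CPM.

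As counts, 4 of 6 members were called higher with the Mitf ASO, where 5.77% of all genes were called higher and 5.21% lower, and nothing is read from that count since the contrast chose the members. Leaving Anxa5 aside, 1 of 5 was called higher with the Tfeb ASO beside 0.564% of genes, and 1 of 5 with the Tfe3 ASO beside 1.46%, in both cases Anxa6. The member median was 0.326 with the Mitf ASO beside -0.0121 for all genes. These calls depend on grp, which the treatments share, as a term of the model. Without it 1 member was called with the Mitf ASO, and Anxa6 was not called with the Tfeb ASO (edgeR adjusted p = 0.165) or the Tfe3 ASO (0.322).

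Differences between ASOs were tested directly. Anxa5 was 0.73 higher on the log2 scale with the Mitf than with the Tfeb ASO and 0.95 higher than with the Tfe3 ASO, a description for the same reason as above. No other member passed between the Mitf and Tfeb ASOs, where 1.67% of genes were called higher, and the smallest adjusted p was 0.0529 for Anxa7 (0.19) by edgeR. None other passed between the Mitf and Tfe3 ASOs (2.63% of genes), with the smallest adjusted p of 0.0816 for Anxa11 (0.24). Between the Tfeb and Tfe3 ASOs, where 1.07% of genes were called higher, Anxa5 differed by 0.22 (95% interval 0.048 to 0.401, edgeR adjusted p = 0.162). For Anxa6 the Mitf and Tfeb ASOs differed by -0.06 (95% interval -0.187 to 0.0678), the Mitf and Tfe3 ASOs by 0.03 (-0.0985 to 0.156), and none of the 3 pairs passed.

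The fourth comparison asks what the combined Mitf and Tfe3 ASOs do in SgshKO mice, in libraries that played no part in the choice of the genes. Anxa2 and Anxa7 fell by small amounts, and Anxa5 stayed close to its ntc level. No member had separate groups. By edgeR's test no member passed in the upward direction, but Anxa6 did under 8 alternatives given below.

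Anxa2 was 18.8, 22.2, 22.5 and 22.9 CPM in grp 1 and 21.5, 24.8, 25.4 and 24.2 CPM in grp 2 with ntc. With the combination it was 22.7, 17.6, 21.8 and 16.5 CPM in grp 1 and 18.3, 17.2, 18.5 and 17.4 CPM in grp 2. In grp 2 all treated libraries lay below all ntc libraries, and in grp 1 they overlapped. The log2 change was -0.29 ± 0.0778 (SE, n = 8 and 8), with an edgeR adjusted p of 0.0284. Within grp 1 alone it was -0.12 (adjusted p = 0.60) and within grp 2 alone -0.44 (0.0119), and the difference between the 2 did not pass (-0.29 ± 0.142, edgeR adjusted p = 0.322). The call was lost without any 1 of 6 libraries, namely grp 1 replicate 4 or grp 2 replicates 2, 3 or 4 of the combination and grp 2 replicates 2 or 3 of ntc (adjusted p = 0.0509 to 0.0606), and with the replicate number as a block (0.0548).

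Anxa7 was 135, 130, 119 and 132 CPM in grp 1 and 115, 112, 126 and 106 CPM in grp 2 with ntc, and 123, 113, 117 and 110 CPM and 106, 103, 105 and 105 CPM with the combination. It fell by 0.14 ± 0.0402 on the log2 scale, with an edgeR adjusted p of 0.0332. Neither set alone passed (adjusted p = 0.223 and 0.192), and the call was lost without any 1 of 11 of the 16 libraries (0.0513 to 0.0748; all but replicate 1 of each set with the combination and, with ntc, grp 1 replicate 3 and grp 2 replicates 2 and 4), with the replicate number as a block (0.0542), without grp in the model (0.147) and with the deposited batch-corrected signal (0.105). It passed under the other alternatives run. In both sets most treated libraries lay below all ntc libraries.

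Anxa5 was 142, 152, 141 and 152 CPM in grp 1 and 120, 131, 129 and 121 CPM in grp 2 with ntc, against 151, 152, 157 and 139 CPM and 117, 121, 116 and 116 CPM with the combination. Grp 1 libraries were higher than grp 2 libraries whatever the treatment. The log2 difference was -0.03 ± 0.0378, with a 95% interval of -0.111 to 0.048 and an edgeR adjusted p of 0.648. That interval lies below the 1.11 described for the Mitf ASO in WT mice, which comes from another table, genotype and pair of groups, and the 2 effects were not tested against each other. The knockdowns differed too: Mitf was 15.3 against 72.4 CPM with the combination, and 1.58 against 43.7 CPM with the Mitf ASO in WT mice.

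The other members did not pass. Anxa6 ran from 56.8 to 84.0 CPM (median 71.9) with ntc and from 72.5 to 93.2 CPM (median 82.3) with the combination, a log2 difference of 0.20 ± 0.0635 with an edgeR adjusted p of 0.0519. Anxa6 passed by DESeq2 (adjusted p = 0.0229), with its size factors (0.0490), with the batch-corrected signal (0.0137), with the replicate number as a block (0.0300) and without any 1 of 4 libraries, namely grp 1 replicate 2 or grp 2 replicate 1 of the combination and grp 2 replicates 2 or 4 of ntc (0.0373 to 0.0477). Anxa3 (0.10, adjusted p = 0.144), Anxa4 (-0.11, 0.16) and Anxa11 (0.06, 0.553) had smaller differences. Thus 2 of 7 members were called lower, beside 4.50% of all genes lower and 4.84% higher, and the member median was -0.0315 beside 0.00205. The count was 0 in grp 1 alone and 1 in grp 2 alone.

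The 2 sets also differed in neutrophil markers, of which 6 of 10 are listed in this table. They summed to 0.996 to 3.96 CPM in grp 1, except for 42.3 CPM in 1 treated library, and to 71.3 to 564 CPM in grp 2. The model holds grp as a term, and any part of these cells in the difference between the sets was not tested. Between treatments, the border macrophage marker Mrc1 was called higher with the combination (155 to 195 against 116 to 183 CPM) and Mobp higher (2.85 to 7.08 against 1.09 to 3.85 CPM). The monocyte marker Ccr2 was called lower (2.01 to 3.58 against 2.88 to 5.77 CPM), and the microglial markers Siglech (0.46) and Csf1r (0.16 on the log2 scale) were called higher. The part of these changes in the annexin values was not tested.

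**Figure D4:**
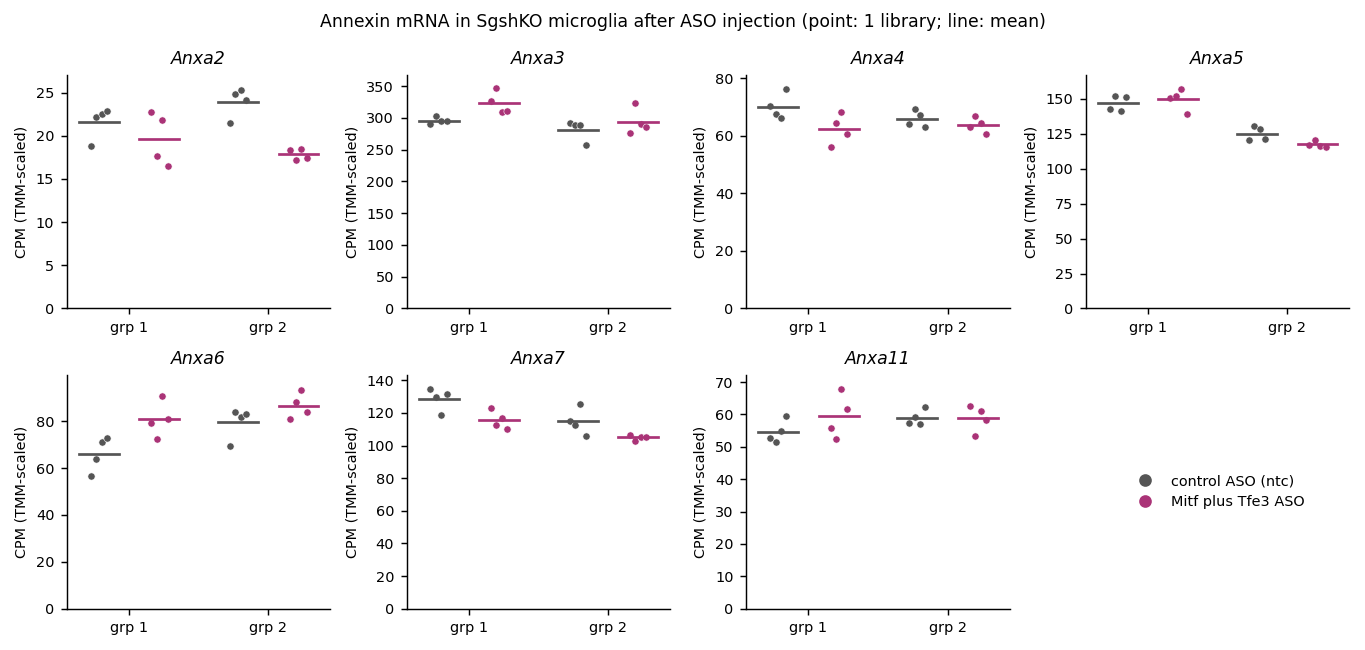
Levels of the 7 annexin mRNAs listed for SgshKO mice with ntc (grey) or the Mitf plus Tfe3 ASOs (purple) by grp (vertical axes, CPM scaled with TMM factors, linear from 0), with 1 point per library and a line at the mean of 4. Anxa2 is at 17.2 to 18.5 CPM in treated grp 2 libraries and 21.5 to 25.4 CPM in their ntc libraries, and Anxa5 lies lower in grp 2 than in grp 1 with either treatment.

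**Figure D5:**
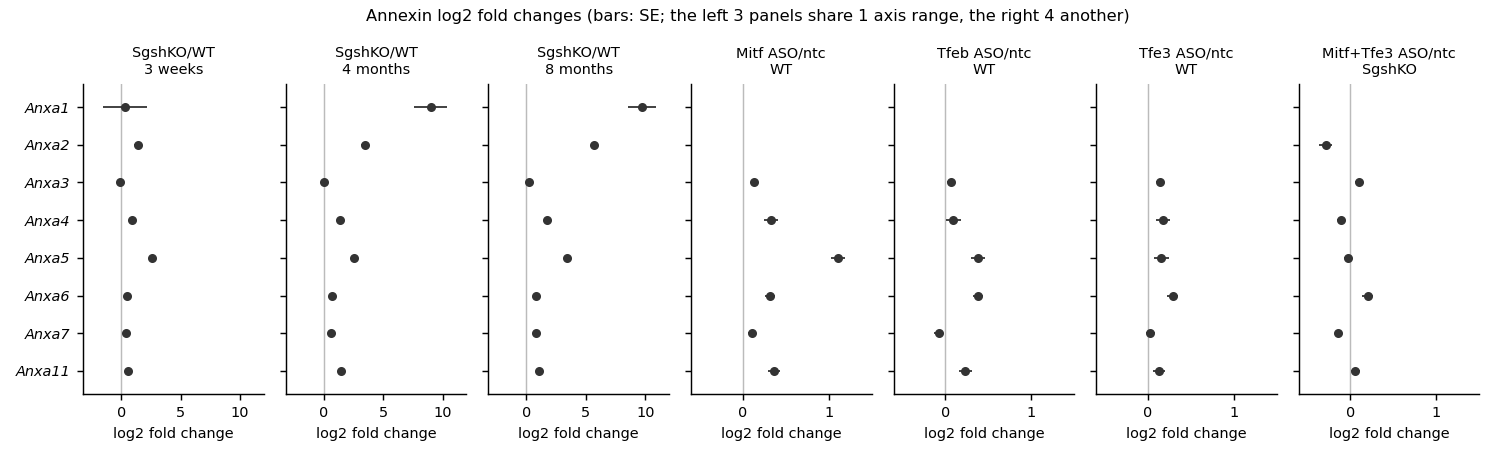
Log2 fold changes of each annexin in the 7 contrasts (horizontal axes, bars are SE; the 3 age panels share a wider range than the 4 ASO panels). Anxa5 has the largest change with the Mitf ASO (1.11) and lies at -0.03 with the combination in SgshKO; Anxa1 values at 4 and 8 months are fitted against WT groups of 8 and 3 counts and depend on the model's prior count.

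Genes that work with annexins were counted from lists of partners, phosphatidylserine transporters and membrane repair factors, which were written with earlier results of these data known. Of 12 partners 10 were tested in the age series. None was called at 3 weeks, 4 were called higher at 4 months, beside 10.3% of all genes, and 9 at 8 months, beside 21.6%. At 8 months Fpr2, the Anxa1 receptor, was at 4.05 ± 3.61 CPM in SgshKO (n = 7) and listed at 0 in all 4 WT libraries, and Fpr1 was at 1.18 CPM and 0. Ahnak, a scaffold bound by the annexin A2 complex, differed by 5.52 and S100a6 by 4.07 on the log2 scale. S100a10, whose product pairs with annexin A2, was not called, at 2.56 ± 1.23 CPM in SgshKO and 1.73 ± 0.914 CPM in WT. Sri, the sorcin gene, was 62.4 against 31.6 CPM at 4 months, a log2 difference of 0.98, and S100a11 differed by 5.50. Fpr2 followed the neutrophil markers among libraries, at 3.91 and 24.9 CPM at 4 months and 11.2 CPM in the 8-month library with the most of them.

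Of 10 genes for flippases and scramblases, which set how much phosphatidylserine faces outward, Ano6 was called lower at 3 weeks (-0.40 ± 0.103) and at 8 months (-0.36 ± 0.0839). Plscr1 differed by 2.08 at 4 and 1.65 at 8 months, Atp8b4 by 5.94 and 7.58, and Atp11a by 0.40 at 8 months, all higher in SgshKO. In total 2 were called higher at 4 months, beside 10.3% of all genes. The 3 called higher and 1 lower at 8 months are near the shares of all genes, 21.6% and 18.9%. Of 20 membrane repair genes, 5, 5 and 10 were called higher at the 3 ages and none lower, beside 5.31%, 10.3% and 21.6% of all genes called higher. Those named by the size of their difference were the calpain genes Capn1 (0.74, 1.90 and 1.37) and Capns1 (0.42, 0.85 and 0.73) at all ages, Chmp6 (0.48) and Chmp4b (0.42) at 3 weeks, Lgals3 (3.55) and Chmp5 (0.57) at 4 months, and Lgals3 (4.32) and the ferlin gene Myof (3.61 against 0.198 CPM) at 8 months.

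Calls among these genes after ASOs are given here beside the shares of all genes. Capns1, the small calpain subunit, was 0.37 higher with the Mitf ASO, and it rose by 0.22 with the Tfeb ASO (edgeR adjusted p = 0.0298) and by 0.27 with the Tfe3 ASO (0.00471). It also rose by 0.26 with the combination in SgshKO (edgeR adjusted p = 0.00148), the opposite direction to Anxa2 and Anxa7. With the Mitf ASO Plgrkt (0.38) and Chmp3 (0.19) were called higher and Ano6 lower (-0.22), where 5.21% of all genes were called lower. With the combination Lgals3 fell by 0.53 (edgeR adjusted p = 0.00688) and Chmp4b rose by 0.24 (0.00623). After ASOs in WT mice, 4 partners, 9 transporter and 16 repair genes were tested, of which 1 partner and 2 repair genes were called higher with the Mitf ASO and 1 repair gene with each other ASO, beside 5.77% (Mitf), 0.564% (Tfeb) and 1.46% (Tfe3) of all genes. After ASOs in SgshKO mice, 3, 9 and 18 were tested, and 2 repair genes were called higher and 1 lower, beside 4.84% and 4.50% of all genes.

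The genes whose levels were most like those of Anxa2 across the 22 age libraries, by Pearson r of log2(CPM + 1) over 8807 genes, were Bhlhe40 (r = 0.978), Fth1 (0.975), Gsn (0.973), Lgals3 (0.972) and Ctss (0.972). Their group means in WT and SgshKO at 8 months were 0.346 and 25.9 CPM for Bhlhe40, a transcription factor, and 479 and 2087 CPM for Fth1, the ferritin heavy chain. Those of Ctss, a lysosomal protease, were 3318 and 6962 CPM. Most like Anxa5 across the 20 WT ASO libraries, after the grp means were removed and over 7946 genes, were Npc2 (r = 0.976), Grn (0.974), Ctsl (0.971), Gsto1 (0.971) and Cd63 (0.969). Npc2, a lysosomal cholesterol carrier, had means of 537, 886, 696 and 592 CPM with ntc and the Mitf, Tfeb and Tfe3 ASOs, and Cd63, a lysosomal membrane protein, 161, 316, 188 and 195 CPM. The libraries share groups and depth, so r describes likeness of pattern only.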

How the data were processed

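PolyA RNA-seq libraries of sorted microglia were used, 58 in 13 groups. The authors deposited raw counts per gene for the age series and for both ASO sets, TPM for the age series, and a normalised, batch-corrected signal per gene for the ASO sets, made by a method not given in the sources used here. Per the submitters' processing notes, STAR 2.5.3a, HOMER 4.11, kallisto 0.44.0, DESeq2 1.36.0, R 4.2.3 and mm10 were used, with no role stated. Per the labels' protocols the libraries were dUTP-stranded, and 2 RNA kits and 2 instruments were used without saying for which library, so neither could enter a model. Of the columns, 0 were left without a sample, and no 2 libraries held the same counts. Genes of low count are absent from the ASO tables by a rule not stated, and levels are not compared across tables.

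Counts were tested in R 4.3.3 with edgeR 4.0.16, using TMM factors, the quasi-likelihood F test and filterByExpr at a minimum count of 10, with 1 model per table and Benjamini-Hochberg adjustment over all genes tested at a threshold of 0.05. The SE is the log2 fold change divided by the square root of F. The ASO models held grp, a number in the titles that in WT mice equals the replicate number and is shared across treatments: after the group means were removed, same-numbered libraries correlated across genes with a median r of 0.409 (0.0514 to 0.72), and others with -0.138. The title of PBS replicate 4 gives grp 4, which was used, and its column grp 3. The age model held the 6 groups alone, since its replicate numbers did not pair (median r = 0.0153).

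The members and the gene lists were chosen with earlier results of these data known. Values were named by rule: all 8 members in every comparison, up to 4 called genes with the largest change per list, and the 5 genes most like Anxa2 and Anxa5 with a mean of at least 10 CPM. In contrasts that chose the members, no p-value of a member is given, nor one for Anxa5 against the WT ntc libraries. TPM were tested as log2(TPM + 1) and log2(TPM + 0.1) and the signal as log2(signal + 1) with limma 3.58.1, as alternatives, beside DESeq2 1.42.0, its size factors, no filter, only the groups compared, the replicate block and leaving out each library. On simulated counts with known changes, 76.0% of genes changed by 1 on the log2 scale were recovered in the 8-month comparison (13909 genes), 96.0% in the Mitf ASO comparison (10277 genes) and 100.0% in the SgshKO ASO comparison (10589 genes). In the same order, 47.9%, 76% and 82% were recovered at a change of 0.6, and 8.51%, 24% and 32% at 0.3. A member that did not pass may thus still differ by amounts of this size. Protein sequences were not analysed here. Figures were drawn with matplotlib 3.10.9.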

Additional observations from a re-analysis of the deposited data

Results flagged for a closer look

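4 of 68 combinations of a member and a group held a library far from the rest, about the 1 in 20 that chance flags. Anxa3 was 251.3 CPM in WT replicate 4 of 8 months, where the others had 299.6 to 305.0 CPM, and 257.8 CPM in the SgshKO ntc library of grp 2 replicate 4, where the next was 288.6 CPM. Anxa6 was 35.4 CPM in WT ntc replicate 4, where the next was 41.81 CPM. Anxa4 was 24.41 CPM in PBS replicate 3, where the other 3 were 23.58 to 23.59 CPM.

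Leaving aside Anxa2, which the age data chose, 3 genotype differences changed with age by the interaction test. That test draws on the libraries of the contrasts that chose the members. The Anxa5 difference between SgshKO and WT was larger at 8 months than at 4 months by 0.8968 on the log2 scale and than at 3 weeks by 0.8436. The Anxa4 difference was larger at 8 months than at 3 weeks by 0.8131. The 2 changes from 3 weeks to 8 months passed under every alternative run. The change from 4 months rests on 2 libraries per group at that age and did not pass without either WT library or without SgshKO replicate 2.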

How the results depend on the processing

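Of the members' values recomputed under the alternatives in the 8 main comparisons, 800 kept direction and side of the threshold, 54 no longer passed, 14 newly passed and 0 reversed; the libraries whose omission ended a call are named beside the results that print a p. Without the replicate block, 1 member was called with the Mitf ASO and 0 with the Tfeb or Tfe3 ASO, beside 4, 2 and 1 with it; the Tfe3 count was also 0 when only the groups compared were fitted. With the combination in SgshKO, where 2 members were called, the count was 0 in grp 1 alone, 1 in grp 2 alone, 1 with treatment alone and 1 with the replicate block (Anxa6, higher). Replicate numbers of that set were not taken to pair the samples: after centring within grp, which the model holds, r between same-numbered libraries ran from 0.0178 to 0.622 with not every pair above 0.1. Centred on the treatment alone, so that the difference between the sets enters, it ran from 0.2 to 0.759. In the age series, whose numbers did not pair, the replicate block gave counts within 1.5 times the main ones. It ended the calls of Anxa7 in WT at 4 and at 8 months against 3 weeks (adjusted p = 0.0759 and 0.0529 by edgeR), of Anxa1 (0.114) and Anxa11 (0.0803) in SgshKO from 4 to 8 months, and of the Anxa5 interaction between 4 and 8 months (0.0771). Leaving out 1 library gave 5 to 6 members at 3 weeks, 6 to 7 at 4 months, 7 to 8 at 8 months, 3 to 4 (Mitf ASO), 1 to 2 (Tfeb ASO), 0 to 1 (Tfe3 ASO), 0 to 0 between ntc and PBS and 0 to 3 with the combination. The last count became 0 without grp 1 replicate 4, grp 2 replicates 2, 3 or 4 of the combination or grp 2 replicate 3 of ntc, and 1 without grp 1 replicate 3 of the combination, grp 1 replicates 1, 2 or 4 or grp 2 replicate 1 of ntc. The cause was not tested beyond fewer samples. The batch-corrected signal called 1 gene between ntc and PBS. Depth limits Anxa1 and Anxa2 in WT.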
